A study of Mus musculus with 6 samples.

Results

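The genes Sox9, Sox8, Dmrt1, Gata4, Gata1, Wt1, Nr5a1, Nr0b1 and Foxl2 encode transcription factors that set or mark the identity of the supporting cells of the gonad. Foxl2 is the ovarian counterpart in the set. These 9 genes were taken by symbol from the 53135 genes of the deposited transcript tables, and the level of each was the sum over all transcripts with its name of their FPKM, which is fragments per kilobase of transcript and per unit of library depth. The libraries were total RNA from lines of mouse Sertoli cells, which nurse developing germ cells in the testis. In 3 libraries (replicates 2, 4 and 7) the cells showed the green fluorescence of a Y-linked GFP, and in 3 (replicates 9, 11 and M) they did not. All 6 carry the same cell type label, the series title speaks of male mice, and the labels give no strain, age or treatment. Nothing in the labels tells whether replicates were separate cultures, clones or animals. The p-values therefore cover only how far these samples spread, and that spread may be technical.

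In the XY gonad of the mouse, Sry switches on Sox9 in the supporting cell lineage, with Nr5a1, Gata4 and Wt1 as earlier requirements. Sox9 and its close relative Sox8 then hold the Sertoli fate, and Dmrt1 keeps it after birth by repressing Foxl2, the factor of ovarian granulosa cells. Nr0b1 encodes DAX1, a corepressor of the nuclear receptor SF1 that Nr5a1 encodes. Gata1 is best known from blood cells and is also expressed in Sertoli cells of the mouse testis.

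Sox9 and Sox8 are near copies in the HMG box, the part of the protein that binds DNA, and the stretch of their coding sequence that matched best is shown because reads from close relatives can be confused. Of 240 bases, 206 were identical (85.8%). The sequences are those of GENCODE release M21 (GRCm38) for the transcript with the highest level of each gene, on chromosome 11 for Sox9 (transcript bases 659 to 898) and on chromosome 17 for Sox8 (bases 444 to 683). Capitals mark the 34 bases that differ.
Sox9: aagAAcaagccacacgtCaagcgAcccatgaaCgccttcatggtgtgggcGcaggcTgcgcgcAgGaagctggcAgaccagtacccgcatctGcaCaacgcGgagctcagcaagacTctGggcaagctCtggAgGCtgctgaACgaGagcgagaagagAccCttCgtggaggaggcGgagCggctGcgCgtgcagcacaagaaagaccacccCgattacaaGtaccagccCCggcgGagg
Sox8: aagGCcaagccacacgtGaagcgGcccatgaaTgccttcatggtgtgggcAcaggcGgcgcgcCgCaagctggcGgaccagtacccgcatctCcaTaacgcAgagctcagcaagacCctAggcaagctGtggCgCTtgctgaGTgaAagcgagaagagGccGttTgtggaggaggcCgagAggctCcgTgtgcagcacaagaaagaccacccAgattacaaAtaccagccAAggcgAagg
The longest run of bases common to the whole Sox9 and Sox8 transcripts was 23, and that common to Gata4 and Gata1 was 24. No pair of the 9 genes shared a longer one.

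Sertoli markers outside the set were present in all libraries. Clu, which encodes clusterin, ranged from 1188 to 2784 FPKM in GFP-positive and from 514.8 to 2643 FPKM in GFP-negative libraries, and Amh, the gene of anti-Müllerian hormone, from 3.92 to 14.2 and from 3.78 to 9.21 FPKM. Rhox5 and Tsx were below 0.5 FPKM in all 6. The summed level of the 20 markers was 3915, 3348 and 2471 FPKM in GFP-positive 2, 4 and 7, against 3817, 882.4 and 3499.5 FPKM in GFP-negative 9, 11 and M, so GFP-negative 11 stood apart. The first principal component of all tested genes held 63.0% of the variance. On it GFP-negative 9, at 20.1, sat between the GFP-positive libraries (-65.7, -50.2 and -60.9) and GFP-negative 11 and M (87.6 and 69.2). The libraries held 8.25 to 11.8 Gb of aligned bases. Of 15095 genes tested, 3910 passed (25.9%). In GFP-positive libraries 2181 of these were higher (14.4% of those tested) and 1729 were lower (11.5%). As deposited, FPKM summed to 668557, 747404 and 723729 in GFP-positive 2, 4 and 7. The sums were 470070, 292449 and 309971 in GFP-negative 9, 11 and M. With libraries scaled to an equal sum of FPKM the split was 565 higher and 6510 lower.

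Sox9 was lower in the GFP-positive lines and Dmrt1 was higher, so the leading factor differed between the groups. Gata4 was also called lower, but its value depended on how transcripts at its locus were counted. Sox8, Gata1, Wt1, Nr5a1 and Nr0b1 did not pass, and Foxl2 was below the filter of 0.5 FPKM in the mean over libraries. Of the 8 genes tested, 1 was thus called higher and 2 lower, against 14.4% and 11.5% of all genes. Values are FPKM scaled between libraries, and tests are limma on log2(FPKM + 0.5) with Benjamini-Hochberg adjustment over all 15095 genes at a threshold of 0.05, GFP-positive minus GFP-negative.

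**Figure D1:**
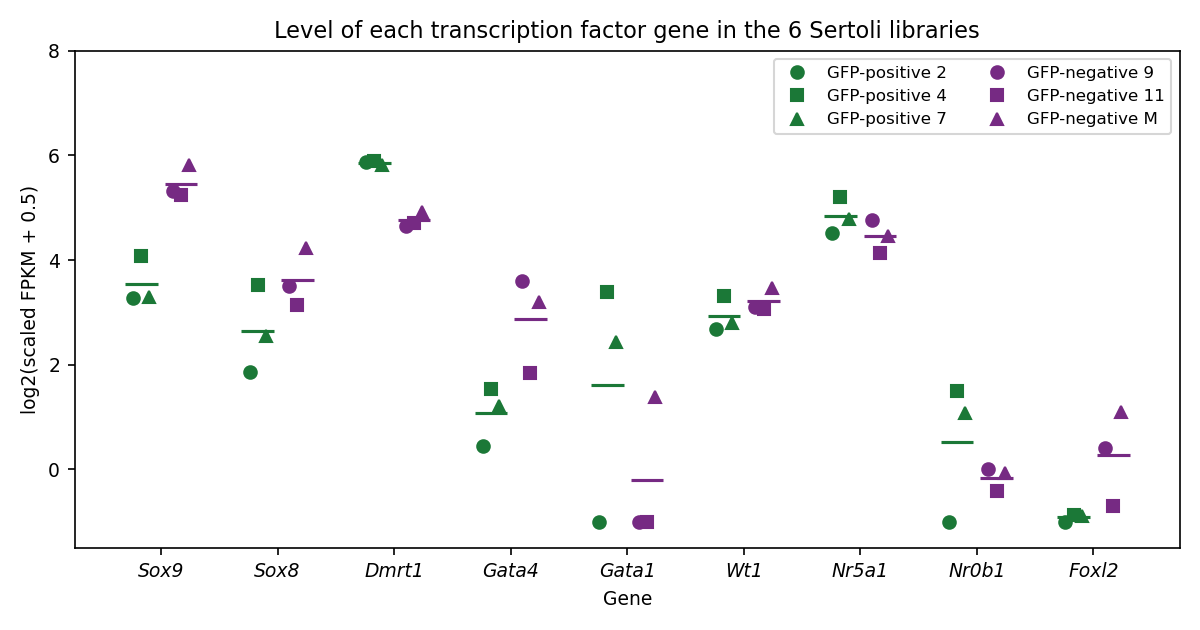
Levels of the 9 genes in each library, as log2(scaled FPKM + 0.5), with GFP-positive libraries in green left of GFP-negative libraries in purple and a bar at each group mean. The groups do not overlap for Sox9, Dmrt1, Gata4 and Foxl2. Among tested genes that holds for 3 of the 8 here and for 45.7% of all. Gata1 and Nr0b1 hold libraries listed at 0.

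Sox9, the factor that executes the Sertoli fate downstream of Sry (chromosome 11, 112673050 to 112679183 in mm39, plus strand), had 9.21, 16.4 and 9.24 FPKM in GFP-positive 2, 4 and 7. Its level was 39.2, 37.4 and 55.6 FPKM in GFP-negative 9, 11 and M. The groups were well apart, with the highest GFP-positive library below the lowest GFP-negative one. The means were 11.6 ± 4.13 and 44.1 ± 9.99 FPKM (SD, n = 3 each), a log2 difference of -1.91 (SE 0.31, limma adjusted p = 0.00800), and 245 of the tested genes had a lower difference. In bulk RNA a lower value cannot be told apart between fewer cells that express a gene and less RNA per cell. Sox9 passed in the 18 alternative settings tried, at differences from -1.63 to -2.94, the last with libraries scaled to an equal sum of FPKM. The median over all genes was -0.87 under that scaling. Sox9 passed narrowly without GFP-positive 7 (limma adjusted p = 0.0491) or GFP-negative M (limma adjusted p = 0.0481).

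Sox8, which backs up Sox9 in maintaining Sertoli cells in the mouse (chromosome 17, 25784866 to 25789660, minus strand), had 3.14, 11.0 and 5.33 FPKM in GFP-positive 2, 4 and 7, against 10.9, 8.33 and 18.3 FPKM in GFP-negative 9, 11 and M. GFP-positive 4 lay inside the range of the GFP-negative libraries, and the groups overlapped. The log2 difference was -0.98 (SE 0.45, limma adjusted p = 0.132), with a 95% interval from -2.01 to 0.05. The gene did pass with libraries scaled to an equal sum (-1.98) and with library weights (-1.43). Cerox1, a noncoding gene on the opposite strand that overlaps the 5' end of Sox8, had 0.430, 0.611 and 0.367 FPKM in the GFP-positive and 1.32, 0.697 and 0.884 FPKM in the GFP-negative libraries.

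Dmrt1, which encodes the DM domain factor that holds Sertoli identity against the ovarian fate (chromosome 19, 25482982 to 25581693, plus strand), was the most even of the genes within a group. Its level was 58.5, 58.8 and 55.9 FPKM in GFP-positive 2, 4 and 7, against 24.6, 25.6 and 29.8 FPKM in GFP-negative 9, 11 and M. The groups were far apart compared with the spread inside each. The means were 57.7 ± 1.58 and 26.7 ± 2.76 FPKM (SD, n = 3 each), a log2 difference of 1.10 (SE 0.23, limma adjusted p = 0.0145). The call was lost without GFP-positive 7 (1.15, adjusted p = 0.0669) or GFP-negative M (1.15, adjusted p = 0.0641). It was also lost with libraries scaled to an equal sum, where the difference was 0.06 against a median of -0.87 over all genes. The annotated 5-exon transcript carried the gene, with group means of 55.5 FPKM in GFP-positive and 25.5 FPKM in GFP-negative libraries.

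Dmrt1 is expressed in spermatogonia as well as in Sertoli cells, and several germ cell markers were also higher in the GFP-positive libraries. Of 16 markers listed 12 were tested, 8 were called higher and none lower, with a median of 2.23, against 14.4% of all genes called higher and a median of 0.02. Each of the 8 had a mean under 0.5 FPKM in the GFP-negative libraries and so passed the filter only through the GFP-positive ones, which fixes their direction, and nothing is read from that count or median. Mael, of the piRNA pathway, had 49.1, 9.09 and 16.1 FPKM in GFP-positive 2, 4 and 7, against 0.388, 0.16 and 0.532 FPKM in GFP-negative 9, 11 and M. Tex101, Sohlh2 and Sohlh1 had log2 differences of 4.87, 3.12 and 2.44 and were likewise highest in GFP-positive 2. Other germ cell markers were lowest there among the GFP-positive libraries. Stra8, which responds to retinoic acid, had 0.081, 3.57 and 10.9 FPKM in GFP-positive 2, 4 and 7, against 0, 0.0673 and 1.01 FPKM in GFP-negative 9, 11 and M, and Kit and Uchl1 were also lowest in GFP-positive 2. The summed level of the 16 markers ranged from 132.1 to 182.3 FPKM in GFP-positive and from 93.3 to 102.03 FPKM in GFP-negative libraries, most of it from Uchl1 outside GFP-positive 2, and Prm1 and Prm2 were listed at 0. The part of germ cell RNA in the Dmrt1 result was not tested.

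**Figure D2:**
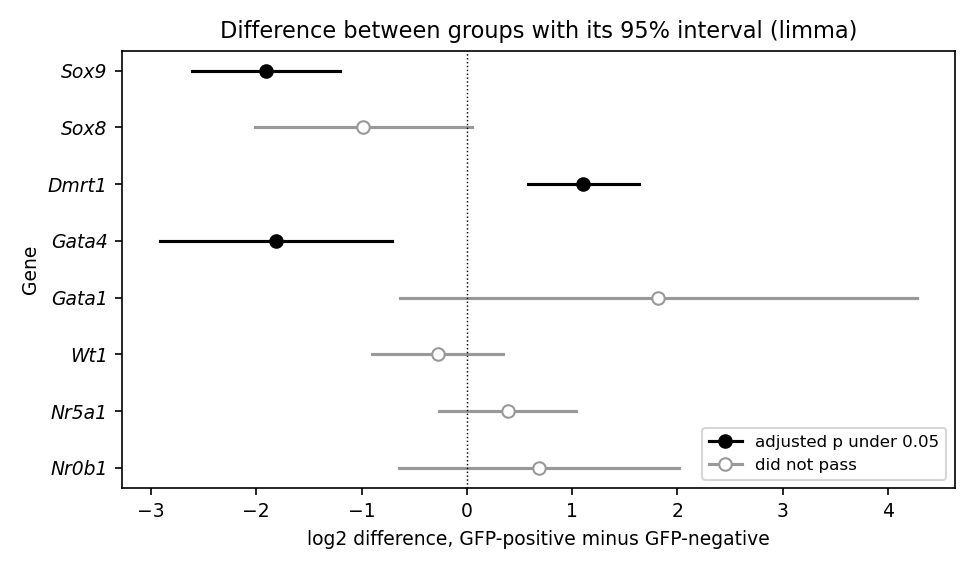
log2 difference of each tested gene, GFP-positive minus GFP-negative, with its 95% interval from limma; filled black points passed at an adjusted p under 0.05. Sox9 (-1.91) and Gata4 (-1.81) lie left of 0 and Dmrt1 (1.10) right of it, and the interval of Gata1 is the widest.

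Gata4 encodes a zinc finger factor needed for the early gonad and for Sertoli function (chromosome 14, 63436371 to 63509356, minus strand). Its named transcripts summed to 0.869, 2.42 and 1.81 FPKM in GFP-positive 2, 4 and 7, against 11.6, 3.08 and 8.74 FPKM in GFP-negative 9, 11 and M. The groups did not overlap, although GFP-negative 11 came close to GFP-positive 4. The log2 difference was -1.81 (SE 0.48, limma adjusted p = 0.0285). The call ended when GFP-positive 2 (-1.48), 4 (-2.04) or 7 (-1.86) was dropped, and likewise on dropping GFP-negative M (-1.68), at adjusted p from 0.0556 to 0.105 and with differences of about the same size. It also ended on dropping the filter on low values, which leaves the difference as it is (adjusted p = 0.106), and on removing the length trend (-1.11, adjusted p = 0.147).

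The named transcripts hold only part of the RNA at the Gata4 locus. In the assembly the gene was merged with its neighbours Fdft1 and Neil2 into 1 locus, and its 2 longest named transcripts were 12878 and 12875 nt long, against 3400 and 3374 nt in GENCODE M21. These 2 transcripts made most of the difference, at means of 0.247 and 0.225 FPKM in GFP-positive and 2.87 and 3.24 FPKM in GFP-negative libraries. Unnamed transcripts on the same strand crossed the gene, and the annotation gave them to no gene. With all of them added, the sum was 8.68, 18.3 and 10.3 FPKM in GFP-positive 2, 4 and 7, against 23.4, 14.6 and 24.5 FPKM in GFP-negative 9, 11 and M. This is an upper bound for Gata4, because some of these transcripts run on across the neighbouring genes. Their FPKM could not be split between the genes. The groups then overlapped, and the difference was -0.75 (adjusted p = 0.116), a setting chosen after the tables were seen.

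**Figure D3:**
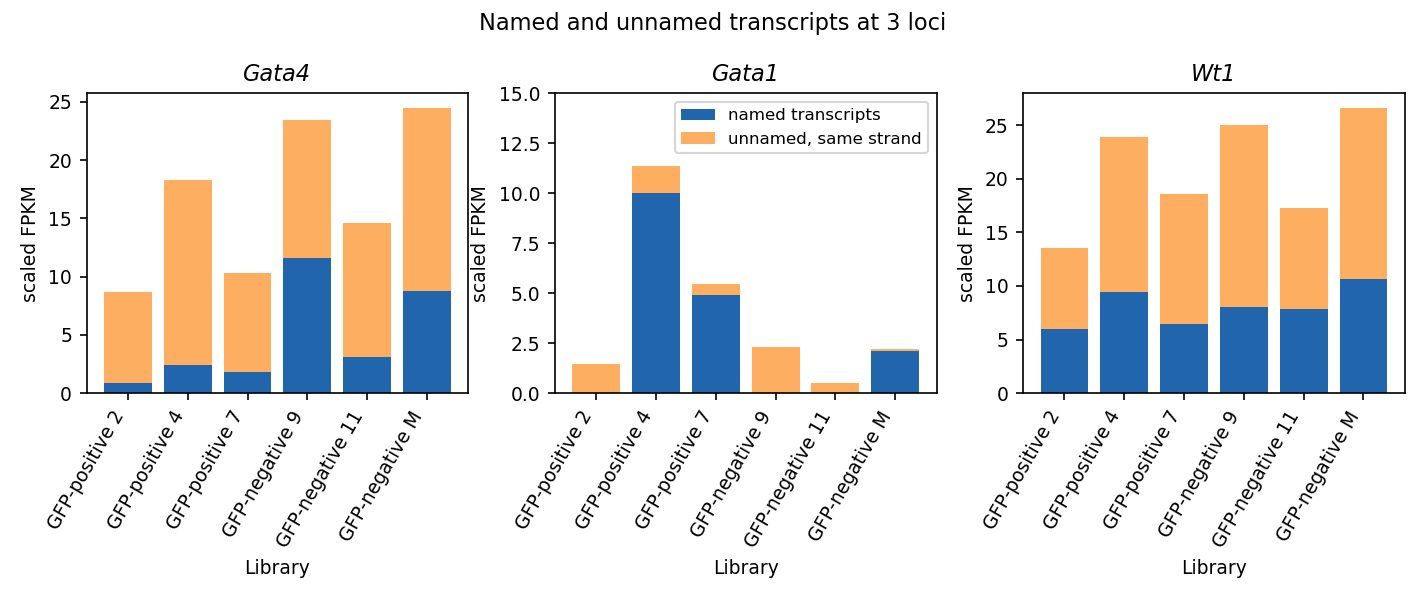
Scaled FPKM of named transcripts (blue) and of unnamed transcripts on the same strand (orange) at the Gata4, Gata1 and Wt1 loci in each library, stacked from 0. Unnamed transcripts make most of the bars of Wt1 in every library and the whole Gata1 bar in GFP-positive 2, GFP-negative 9 and GFP-negative 11.

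Gata1 (chromosome X, 7825499 to 7844310, minus strand) was uneven within both groups. Its named transcripts were listed at 0 in GFP-positive 2 and at 10.0056 and 4.92 FPKM in GFP-positive 4 and 7, against 0 in GFP-negative 9 and 11 and 2.09 FPKM in GFP-negative M. The groups overlapped, and the difference of 1.82 (SE 1.08, limma adjusted p = 0.228) had a 95% interval from -0.64 to 4.27. It passed only when GFP-positive 2 was left out, at 3.13 (adjusted p = 0.0319).

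A listed 0 for Gata1 did not mean that no RNA was found at the gene. An unnamed transcript of 8 exons, which starts 10161 bases upstream of the start of the 6-exon named one, was present in all 6 libraries, while a named 5-exon transcript with the same start was listed at 0. It had 1.48, 1.37 and 0.549 FPKM in GFP-positive 2, 4 and 7, against 2.31, 0.528 and 0.118 FPKM in GFP-negative 9, 11 and M. Sertoli cells of the mouse are known to use a distal first exon of Gata1, which lies upstream of the one used in blood cells. With this transcript added, the log2 difference was 1.39 (adjusted p = 0.127).
GATA factors share their zinc fingers, and the best-matching coding stretch of Gata4 and Gata1 is shown because both genes were uncertain here. Of 180 bases, 126 were identical (70.0%), and capitals mark the 54 that differ, on chromosome 14 for Gata4 and X for Gata1 (GENCODE M21).
Gata4: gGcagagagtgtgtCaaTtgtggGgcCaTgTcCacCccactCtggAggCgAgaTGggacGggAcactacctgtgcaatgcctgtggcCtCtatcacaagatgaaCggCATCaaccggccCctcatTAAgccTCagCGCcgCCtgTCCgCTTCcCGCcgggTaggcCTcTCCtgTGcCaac
Gata1: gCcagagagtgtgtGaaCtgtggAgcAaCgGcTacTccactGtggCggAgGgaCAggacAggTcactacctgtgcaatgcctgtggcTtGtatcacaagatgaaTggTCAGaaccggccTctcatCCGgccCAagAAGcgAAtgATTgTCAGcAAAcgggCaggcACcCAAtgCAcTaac

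Markers of erythroid cells, megakaryocytes and mast cells, where Gata1 also acts, were at low levels. Of 11 listed only Kit was tested, and it did not pass (0.35, limma adjusted p = 0.455). The haemoglobin gene Hbb-bs was at or below 0.0462 FPKM in 5 libraries and at 2.59 FPKM in GFP-negative 11, and Cpa3 was listed at 0. The summed level of the list ranged from 0.633 to 1.83 FPKM in GFP-positive and from 0.429 to 6.38 FPKM in GFP-negative libraries. Haemoglobin genes made most of the sum in GFP-negative 11, where named Gata1 transcripts were listed at 0. Alas2, an erythroid gene of haem synthesis that was below the filter, had 0.065, 0.981 and 1.02 FPKM in GFP-positive 2, 4 and 7, against 0.0486, 0.0901 and 0.192 FPKM in GFP-negative 9, 11 and M. Like Gata1 it was higher in GFP-positive 4 and 7 than in the other libraries. The part of blood cell RNA in the Gata1 values was not tested.

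Wt1, a zinc finger gene required for the gonad and kept on in Sertoli cells (chromosome 2, 104956874 to 105005035, plus strand), had 5.94, 9.43 and 6.47 FPKM in GFP-positive 2, 4 and 7, against 8.07, 7.82 and 10.6 FPKM in GFP-negative 9, 11 and M. The groups overlapped, and the difference of -0.28 (SE 0.27, limma adjusted p = 0.464) had a 95% interval from -0.90 to 0.35. The value was positive with the length trend removed (0.41) and passed as lower with libraries scaled to an equal sum (-1.27). Unnamed isoforms held 61.0% of the FPKM of the gene in the GFP-positive and 61.6% in the GFP-negative libraries, so named transcripts understate its level. With them added the means were 18.7 ± 5.17 and 23.0 ± 4.99 FPKM.

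Wt1 is made in forms with and without 9 bases, which encode the amino acids KTS, between its last zinc fingers, and the form with them is needed for the male gonad in the mouse. The splice site of both forms is shown because the annotated transcripts split by it, with the 9 bases in capitals, on chromosome 2 (GENCODE M21).
Wt1 with the insert: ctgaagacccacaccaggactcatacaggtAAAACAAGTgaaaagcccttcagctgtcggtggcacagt
Wt1 without the insert: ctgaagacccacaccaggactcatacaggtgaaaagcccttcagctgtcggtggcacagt
The 4 annotated transcripts with the insert summed to 2.09, 7.94 and 3.92 FPKM in GFP-positive 2, 4 and 7, against 4.87, 6.39 and 8.69 FPKM in GFP-negative 9, 11 and M. The 2 without it summed to 2.78, 0.466 and 1.76 FPKM in the GFP-positive libraries, against 2.06, 0.0375 and 0.103 FPKM in the GFP-negative ones. The form without the insert thus made 57.1%, 5.54% and 31.1% of the sum in GFP-positive 2, 4 and 7, against 29.7%, 0.583% and 1.17% in GFP-negative 9, 11 and M. GFP-negative 9 lay inside the GFP-positive range, and the groups overlapped. The unnamed isoforms could not be split by this site and hold most of the gene, and the shares are estimates that StringTie made from reads shared between isoforms. The named Wt1 transcripts were also longer in the assembly than in GENCODE M21. The main one without the insert had 3427 nt, against 1418 nt there.

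Nr5a1, which encodes the nuclear receptor SF1 of Sertoli and steroid-producing cells (chromosome 2, 38582668 to 38604554, minus strand), was the second most abundant of the genes in the GFP-positive libraries. It had 22.4, 36.3 and 27.2 FPKM in GFP-positive 2, 4 and 7, against 26.7, 16.98 and 21.5 FPKM in GFP-negative 9, 11 and M. The groups overlapped, with a difference of 0.39 (SE 0.29, limma adjusted p = 0.328) and a 95% interval from -0.27 to 1.04. The value turned negative with libraries scaled to an equal sum (-0.65), where the median of all genes was -0.87. Nr5a1 is a gene of Leydig cells too, and of 5 Leydig markers tested 1, Insl3, was called lower (-1.63, limma adjusted p = 0.0491), against 11.5% of all genes. Insl3 averaged 0.0316 FPKM in GFP-positive and 1.57 FPKM in GFP-negative libraries, so it passed the filter only through the second group, mainly through GFP-negative 11 (3.55 FPKM). The summed level of the 7 listed ranged from 35.8 to 86.1 FPKM in GFP-positive and from 72.4 to 88.6 FPKM in GFP-negative libraries, with Cyp17a1 and Lhcgr below 0.5 FPKM in all. Most of that sum in each library came from Cyp11a1, Hsd3b1 and Star. Their differences were -0.04, 0.18 and -0.84, and none of them passed. Hsd17b3 (-0.47) did not pass either. Nr5a1os, on the opposite strand, did not exceed 0.0763 FPKM as deposited.

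Nr0b1 (chromosome X, 85235370 to 85239553, plus strand) was listed at 0 in GFP-positive 2 and had 2.32 and 1.61 FPKM in GFP-positive 4 and 7, against 0.506, 0.247 and 0.454 FPKM in GFP-negative 9, 11 and M. The GFP-positive libraries lay on both sides of the GFP-negative ones. The difference was 0.68 (SE 0.59, limma adjusted p = 0.394), and 1.45 without GFP-positive 2, where it passed (adjusted p = 0.0295). The gene passed the filter through its level in GFP-positive libraries, since its mean in GFP-negative ones was 0.402 FPKM.

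Foxl2, the granulosa factor (chromosome 9, 98837341 to 98840596, plus strand), was listed at 0 in GFP-positive 2 and at 0.0484 and 0.0417 FPKM in GFP-positive 4 and 7, against 0.824, 0.117 and 1.64 FPKM in GFP-negative 9, 11 and M. The groups did not overlap, as for 45.7% of all tested genes, but its mean of 0.445 FPKM over the 6 libraries was under the filter. With no filter the difference was -1.19 (limma adjusted p = 0.175). It passed without GFP-negative 11 (-1.70, adjusted p = 0.0252), and also on the equal-sum scale (-1.57, adjusted p = 0.0283). Without GFP-positive 2, 4 or 7 it was tested and did not pass (limma adjusted p from 0.143 to 0.162). Where a filter applied, Foxl2 got through it only by the GFP-negative libraries (mean 0.860 FPKM, against 0.0300 FPKM in GFP-positive ones). That fixes its direction, and nothing is read from those calls. Foxl2os, a noncoding gene on the opposite strand that overlaps the 5' end of Foxl2, ranged from 0 to 0.0825 FPKM in GFP-positive and from 0.0247 to 0.406 FPKM in GFP-negative libraries.

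Of 12 other genes of the granulosa programme 5 were tested. Runx1, which maintains fetal granulosa cells together with Foxl2 in the mouse, was the 1 called lower, with none higher, against 11.5% of all genes called lower and 14.4% higher (list median -0.40, against 0.02 over all genes). Runx1 had 3.03, 4.56 and 5.97 FPKM in GFP-positive 2, 4 and 7, against 10.7, 16.0 and 9.84 FPKM in GFP-negative 9, 11 and M, a difference of -1.35 (SE 0.32, limma adjusted p = 0.0198). Wnt4 (-0.49), Fst (-0.26), Bmp2 (-0.40) and Hsd17b1 (0.78) did not pass. With 5 genes tested, 1 called lower is near the share over all genes. The summed level of the 12 genes ranged from 17.5 to 31.4 FPKM in GFP-positive and from 27.4 to 33.2 FPKM in GFP-negative libraries. Cyp19a1, the aromatase gene, did not exceed 0.0288 FPKM.

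In order of level, which FPKM allows because it is per length, the GFP-positive libraries ran Dmrt1, Nr5a1, Sox9, Wt1, Sox8, Gata1, Gata4, Nr0b1 and Foxl2. Dmrt1 lay above Nr5a1, and Nr5a1 above Sox9, in all libraries of the group, while each later neighbour overlapped the next. The GFP-negative libraries ran Sox9, Dmrt1, Nr5a1, Sox8, Wt1, Gata4, Foxl2, Gata1 and Nr0b1. There Sox9 lay above Dmrt1 and Gata4 above Foxl2 in all libraries, and the other neighbours overlapped. With unnamed isoforms added, Wt1 moved to the third place in the GFP-positive libraries and Nr5a1 to the second in the GFP-negative ones. Gata4 gained nothing there, since its locus held 3 gene names. With all overlapping unnamed transcripts its means were at most 12.4 and 20.8 FPKM, against 1.70 and 7.81 FPKM for named ones. The lengths behind its FPKM were also uncertain (12878 and 12875 nt, against 3400 and 3374 nt in GENCODE M21), so its places are uncertain. Lengths differed too for the highest named transcripts of Sox9 (4732 nt, against 4135 nt) and Wt1 (4168 nt, against 3090 nt), which makes their places less certain.

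The ratio of 2 genes within a library does not depend on how libraries are scaled, apart from the added 0.5. The log2 ratio of Sox9 to Dmrt1 was -2.60, -1.81 and -2.53 in GFP-positive 2, 4 and 7, against 0.66, 0.54 and 0.89 in GFP-negative 9, 11 and M. Sox9 was thus below Dmrt1 in each GFP-positive library and above it in each GFP-negative one, a shift of -3.01. The ratio of Sox9 to Wt1 was 0.59, 0.77 and 0.48 in the GFP-positive libraries, against 2.21, 2.19 and 2.34 in the GFP-negative ones, a shift of -1.63 that was far larger than the spread in either group.

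The ratio of Dmrt1 to Wt1 was 3.19, 2.58 and 3.02 in the GFP-positive libraries, against 1.55, 1.65 and 1.45 in the GFP-negative ones, a shift of 1.38. A ratio does not cancel a trend with transcript length. With that trend removed, the differences of Dmrt1 and Wt1 were 0.91 and 0.41, closer together than the 1.10 and -0.28 reported. Ratios were not computed in that setting. Sox9 to Sox8 shifted by -0.93, and the groups did not overlap. Sox9 to Gata4 overlapped, with a shift of -0.10. Of 28 pairs, 18 did not overlap, against 43.7% of all pairs of tested genes, and Sox9 and Gata4 were in 6 of them each, Sox8, Dmrt1 and Nr5a1 in 5 each, Wt1 in 4, Nr0b1 in 3 and Gata1 in 2. Pairs share genes and are not independent. Nr0b1 passed the filter only through the GFP-positive libraries. Gata4 entered by its named transcripts, and ratios were not computed with all overlapping unnamed transcripts added. Nothing is therefore read from the count of 18. Each of the 18 had an exact two-sided permutation p of 0.1, the smallest that 3 against 3 libraries allow, and 0.156 adjusted over the 28 pairs.

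**Figure D4:**
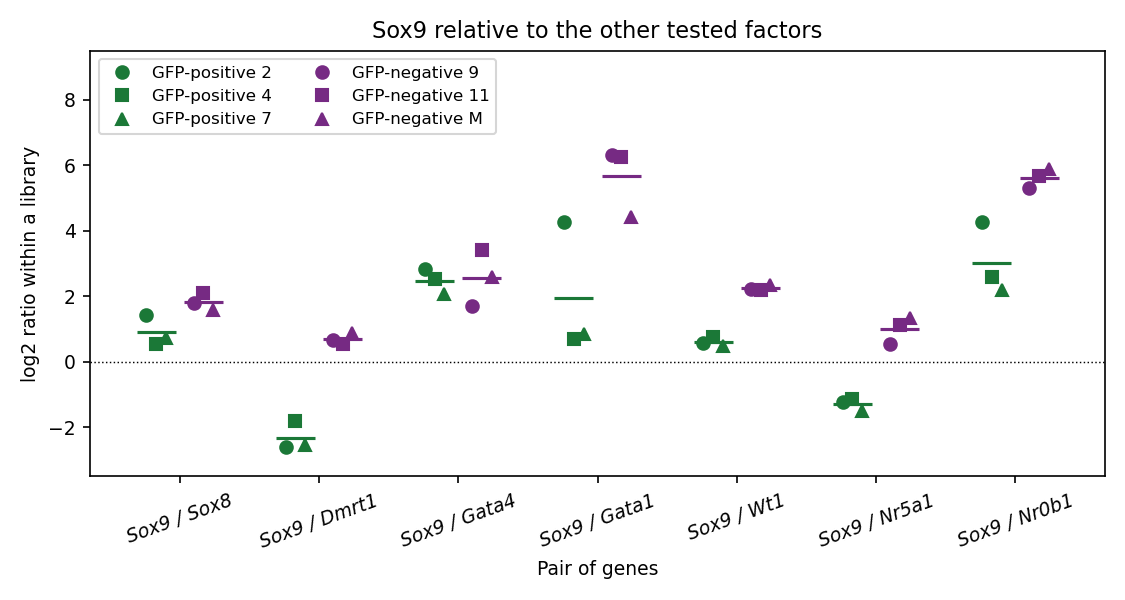
log2 ratio of Sox9 to each other tested gene within a library (values as log2 of scaled FPKM + 0.5), with GFP-positive libraries in green left of GFP-negative libraries in purple and bars at group means. The ratio to Dmrt1 is below 0 in the 3 GFP-positive and above 0 in the 3 GFP-negative libraries, and only the ratio to Gata4 overlaps between the groups.

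Of 14 genes that act upstream of these factors or beside them in testis determination 10 were tested, none was called higher and 2 were called lower, against 14.4% and 11.5% of all genes (median -0.67, against 0.02 over all genes). They were the insulin receptor gene Insr, at 3.10, 2.66 and 2.92 FPKM in GFP-positive 2, 4 and 7, against 6.60, 7.31 and 6.85 FPKM in GFP-negative 9, 11 and M (-1.13, limma adjusted p = 0.0145), and the related Igf1r (-0.97, adjusted p = 0.0373). Both receptors are needed for testis determination in the mouse. Sry did not exceed 0.0113 FPKM.

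Of 11 genes known downstream of Sox9 and its partners 9 were tested, 1 was called higher and none lower, against 14.4% and 11.5% of all genes (median 0.48). With so few genes those counts are near the shares over all genes. Cst9, an early Sertoli gene that encodes a cystatin, had 1.65, 4.36 and 5.83 FPKM in GFP-positive 2, 4 and 7, against 0.761, 0.413 and 0.776 FPKM in GFP-negative 9, 11 and M (1.83, limma adjusted p = 0.0181). Amh, a direct target of Sox9, had a difference of 0.02 (SE 0.50, adjusted p = 0.981), and was chosen after its value was seen. Among the 18 Sertoli markers tested, Cst9 and the defensin gene Defb19 (2.33) were called higher and the growth factor gene Gdnf (-1.26) lower (median 0.51), again against 14.4% and 11.5% of all genes.

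Among 13 paralogues and cofactors 5 were tested and 1 was called, lower, against 11.5% of all genes (median 0.11). Dmrt3, a neighbour of Dmrt1 on chromosome 19, had 0.523, 0.631 and 0.335 FPKM in GFP-positive 2, 4 and 7, against 1.84, 0.99 and 2.96 FPKM in GFP-negative 9, 11 and M (-1.21, limma adjusted p = 0.0378), opposite in sign to Dmrt1. It passed the filter only through the GFP-negative libraries. Dmrt2, beside them on the same chromosome and below the filter, had 0.465, 0.539 and 0.461 FPKM in GFP-positive 2, 4 and 7, against 0.19, 0.0288 and 0.0669 FPKM in GFP-negative 9, 11 and M, higher in the GFP-positive libraries as Dmrt1 was. Gata6, a relative of Gata4 chosen after its values were seen, had 7.06, 10.3 and 6.33 FPKM in the GFP-positive libraries, against 12.4, 10.6 and 11.7 FPKM in the GFP-negative ones. The groups did not overlap, as for 45.7% of all tested genes, and Gata6 did not pass (-0.55, adjusted p = 0.148). Sox10, the remaining member of the Sox8 and Sox9 family, stayed below 0.5 FPKM in all libraries.

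Of 6 peritubular myoid markers tested Myh11 (-2.49) and Actg2 (-2.19) were called lower, and of 2 macrophage markers tested Lyz2 was (-1.88), against 11.5% of all genes. Myh11 averaged 0.246 FPKM in GFP-positive and 6.81 FPKM in GFP-negative libraries, and it too passed the filter only through the second group, mainly through GFP-negative 11 (17.2 FPKM). Tagln (0.75) and Cnn1 (0.12) of the myoid list had positive differences and did not pass. The same held for Cd68 (0.24), the other macrophage marker tested. The summed myoid level was 130.2, 1851 and 1059 FPKM in GFP-positive 2, 4 and 7, against 414.9, 872.9 and 328.9 FPKM in GFP-negative 9, 11 and M. Among the GFP-positive libraries it was lowest in 2, where Sox8, Gata4, Wt1 and Nr5a1 were also lowest and Gata1, Nr0b1 and Foxl2 were listed at 0, and highest in 4, where those 7 genes were highest. The summed macrophage level was 1.61 to 2.20 FPKM in GFP-positive and 3.44 to 7.88 FPKM in GFP-negative libraries, where Lyz2 made most of it. The part of these cells in the results was not tested.

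The genes whose profile over the 6 libraries was most like that of a factor were found by the root-mean-square difference of log2 levels centred on their mean. Nearest to Sox9 were Notch2 (0.08), Rnf5 and Scd2 (0.13 each), against an SD of Sox9 itself of 1.01. Notch2, a receptor of the Notch pathway, had 7.59, 11.97 and 7.05 FPKM in GFP-positive 2, 4 and 7, against 28.3, 28.9 and 38.8 FPKM in GFP-negative 9, 11 and M. Nearest to Dmrt1 were Ppp1r8 (0.07), Smco4 (0.08) and Uqcrq (0.10), against an SD of 0.56. The nearest to Gata4 was Dag1 (0.26), followed by Scube3 (0.28) and Lyz2 (0.32), and to Sox8 Hip1 (0.10), Plxnb1 (0.12) and Rtn1 (0.14). Nearest to Wt1 were Myl6b, Pxn and Panx1 (0.06 to 0.08), and to Nr5a1 Orai1, Bag2 and Kif6 (0.04 to 0.09). Nearest to Nr0b1 were Itgad, Ptgds and Apol9b (0.12 to 0.19). Gata1 had no neighbour as close, with Stra8, Cyp26a1 and Magec2 at 0.78 to 0.84 against an SD of 1.80.

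**Figure D5:**
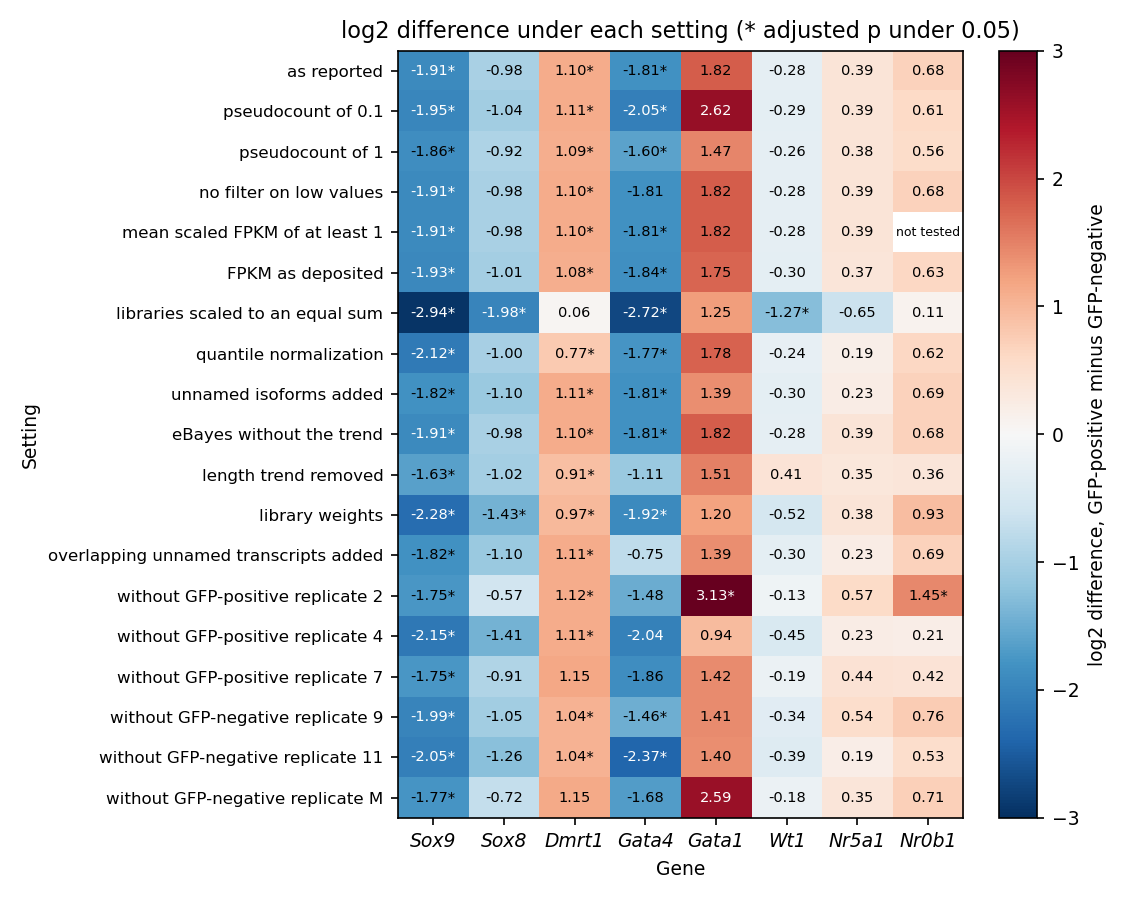
log2 difference of each tested gene (columns) in the reported setting and 18 alternatives (rows), colour and number both giving the value and an asterisk an adjusted p under 0.05. Sox9 has an asterisk in each row, Dmrt1 in 16 of 19 and Gata4 in 12 of 19.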

How the data were processed

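Total RNA was depleted of ribosomal RNA and made into strand-specific libraries by the dUTP method, per the labels' protocols. Trimmomatic, HISAT2, StringTie and the build mm39 are named in the submitters' processing notes. No source used here gives the strand setting of the assembly, which leaves values of antisense partners uncertain. The authors deposited FPKM per transcript and the mean per-base coverage of each transcript (signal), per the file headers. Coverage divided by FPKM was constant within a library and gave its depth; there are no read counts, so no counting interval is given.

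FPKM were summed per gene name, and unnamed isoforms at named loci were left out (7902 of 153503 transcripts, 5.36% to 8.16% of a library's FPKM). An alternative adds those at loci with 1 gene name. Median-of-ratios factors put the libraries on 1 scale. Genes with a mean under 0.5 FPKM or a longest transcript under 200 nt were left out. limma 3.58.1 in R 4.3.3 (lmFit, eBayes with trend) was fitted to log2(FPKM + 0.5). Differences on this scale understate changes of low genes. In simulated data it recovered 3 of 67 log2 changes of 1, 37 of 67 of 2 and 60 of 66 of 4. Far fewer genes changed there than were called here, which makes the adjustment stricter. A gene that did not pass may thus still differ. Pairs of genes were compared by exact permutation in SciPy 1.17.1. The genes and lists were chosen with earlier results of these data known. From each list the text names up to 4 called genes, or else the 2 with the highest mean, and any gene that overlaps a factor; other genes, such as Clu, Amh, Uchl1, Stra8, Alas2, Dmrt2, Tagln, Cnn1, Gata6 and defining markers at or near 0, were chosen after their values were seen. Sequences came from GENCODE M21 transcripts, matched by identifier, and coordinates from the deposited tables.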

Additional observations from a re-analysis of the deposited data

Results flagged for a closer look

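One unnamed transcript at the Gata4 locus, not used in the reported gene sums, ran against the named ones. MSTRG.6614.1, of 15 exons, spans chromosome 14 from 63382599 to 63509356 and so crosses Fdft1, Neil2 and Gata4. It had 2.05, 8.26 and 2.32 FPKM in GFP-positive 2, 4 and 7, against 1.10, 1.504 and 0.245 FPKM in GFP-negative 9, 11 and M, so the lowest GFP-positive library (2.05) was above the highest GFP-negative one. Another unnamed transcript there, MSTRG.6614.5, had means of 2.66 FPKM in GFP-positive and 6.21 FPKM in GFP-negative libraries.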

How the results depend on the processing

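No paired analysis was possible because the groups share no replicate numbers. Sox9 was called lower in the 18 alternatives. The count of factor genes called higher (1 as reported) was 0 with libraries scaled to an equal sum, where 565 of 15575 genes were. When 1 library was left out it was 0 to 3. It was 3 without GFP-positive 2 (Dmrt1, Gata1 and Nr0b1), where 1552 of 14892 genes were called higher. It was 0 without GFP-positive 7 (402 of 15033 genes) or GFP-negative M (318 of 15147 genes). The count called lower (2) was 5 on the equal-sum scale (Sox9, Sox8, Gata4, Wt1 and Foxl2), where 6510 of 15575 genes were. It was 1 without the filter (386 of 33661 genes), under the length correction (1220 of 15095) or with overlapping unnamed transcripts added (2095 of 15293). It ranged from 1 to 3 when 1 library was left out. It was 3 (Sox9, Gata4 and Foxl2) without GFP-negative 11, where 985 of 15043 genes were called lower. There and on the equal-sum scale Foxl2 got through the filter only by the GFP-negative libraries, and nothing is read from its calls. The count called lower was 1 (Sox9) without GFP-positive 2 (718 of 14892), 4 (784 of 15217) or 7 (172 of 15033), or GFP-negative M (130 of 15147). On the equal-sum scale Nr5a1 was -0.65, where the median over all genes was -0.87. With the length trend removed Wt1 was 0.41, and the cause was not tested. Over all genes 3910 were called, against 1082 without the filter, 7075 on the equal-sum scale, 2264 under the length correction and 8317 with library weights. Without 1 library it ranged from 448 to 5628: 2270 when GFP-positive 2 was dropped, 2065 when 4 was and 574 when 7 was, then 5628 when GFP-negative 9 was dropped, 2391 when 11 was and 448 when M was. The 18 pairs of genes without overlap numbered 21 with unnamed isoforms added. They numbered 18 to 24 without 1 library, but leaving out a library can only narrow the range of a group. That count could therefore not fall, and nothing is read from it. Nr0b1 was not tested at a mean of at least 1 FPKM. Arms of 2 libraries share the spread of the other group. Mean per-base coverage of the named transcripts ranged over the libraries from 102.7 to 480.8 for Sox9 but from 0 to 14.2 for Foxl2 and from 0 to 25.1 for Nr0b1, so low values are less certain.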
